A study of Mus musculus with 8 samples.

Results

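The nuclear genes of the mitochondrial respiratory chain and ATP synthase were followed in the hippocampus of 3 × Tg-AD mice fed rosmarinic acid (RA). Members were chosen by gene symbol alone. Every probe set that names 1 gene with a symbol starting with Nduf, Sdh, Uqcr, Cox4, Cox5, Cox6, Cox7, Cox8 or Atp5 was taken, without Cox8b. This gave 184 of 45037 probe sets, for 93 of 18193 genes. They were grouped by the start of the symbol into complex I (88 probe sets, 44 genes), complex II (15 probe sets, 8 genes) and complex III (16 probe sets, 8 genes). The others were complex IV (34 probe sets, 16 genes) and complex V, the ATP synthase (31 probe sets, 17 genes).

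RA is a polyphenol of herbs of the mint family. The RA group (4 arrays) and the control group (4 arrays) were male 3 × Tg-AD mice, which carry human APP and tau transgenes and a mutant presenilin 1 and develop amyloid and tau pathology with age. The RA group ate a diet with 0.5% RA for 8 months, the control group ate the same diet without RA, and both were 10 months old when the hippocampus was taken. Both groups are of this strain and age, so each comparison is between diets within it. The methods name 4 mice in each group and also pooled total RNA, so whether 1 array stands for 1 mouse is not settled here, and the spread between arrays may be partly technical.

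Complex I takes electrons from NADH and complex II takes them from succinate. Ubiquinone carries them to complex III, cytochrome c carries them on to complex IV, and complex IV hands them to oxygen. Complexes I, III and IV pump protons across the inner membrane, and the ATP synthase uses that gradient to make ATP. Each complex except complex II is built from nuclear and mitochondrially encoded subunits. Neurons draw most of their ATP from this chain.

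Values are the deposited log2 levels, 1 for each probe set and array, made with FARMS, a factor analysis. Under it a probe set whose probes share little variation between arrays comes out almost flat, at a low or a high level. Of all probe sets, 3758 (8.34%) had an SD over the 8 arrays above 0.01, and these are called measured below. Array medians were 5.833 to 5.835 in the RA group and 5.829 to 5.831 in the control group. The RA mean was the higher one in 73.1% of the measured probe sets, whose median log2 fold change was 0.069, and each count below is set against this lean. RNA of neighbouring tissue varied between arrays. The mean log2 level of 11 choroid plexus markers was 6.48, 5.61, 7.50 and 7.94 in RA arrays 1 to 4, against 5.65, 5.68, 8.22 and 5.69 in control arrays 1 to 4. That of 8 measured markers of hippocampal neurons, of 9 listed, was 7.68 to 8.41 in the RA group and 7.87 to 8.50 in the control group. In this mean RA 2 and control 1 were the lowest of their groups. The same held for Neurod6, Dsp, Hpca, Prox1 and Fibcd1, each on its probe set with the highest mean. It did not hold for Wfs1, C1ql2 and Crym, which were highest of all arrays in control 1 (9.21, 6.96 and 10.07).

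Most of the chain had no measurable spread in these files. Of the 184 members, 19 probe sets (10.3%) for 17 genes were measured, namely 7 of complex I, none of complex II, 2 of complex III, 6 of complex IV and 4 of complex V. The other 165 had an SD of at most 0.0047 and a difference between group means of at most 0.0033 on the log2 scale. Nothing lay near the limit. The members just below it were Atp5d (1456580_s_at, SD 0.0047) and Ndufb2 (1448483_a_at, SD 0.0033), and the members just above it were Cox6b2 (SD 0.021) and Ndufb7 (SD 0.036). For 76 of the 93 genes, no probe set can show a difference between diets, and this says nothing on whether one existed. Of the 17 measured genes, only Atp5pb, Cox6b2, Ndufs1, Ndufs3 and Ndufs5 had no unmeasured probe set among the members. Values given below are those of the measured probe sets.

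Dim and bright members alike were mostly unmeasured, and the dim ones more often. Up to a mean log2 level of 6, 1 of 30 members (3.33%) was measured, against 1.08% of all probe sets at that level. Between 6 and 8, none of 31 members was measured, against 12.7% of all probe sets. Between 8 and 10, 11 of 78 members (14.1%) were measured, against 31.6% of all probe sets. Above 10, 7 of 45 members (15.6%) were measured, against 43.0% of all probe sets. Above a level of 6 the members were measured less often than the array as a whole, and up to 6 more often, by 1 probe set. These differences were not tested.

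**Figure D1:**
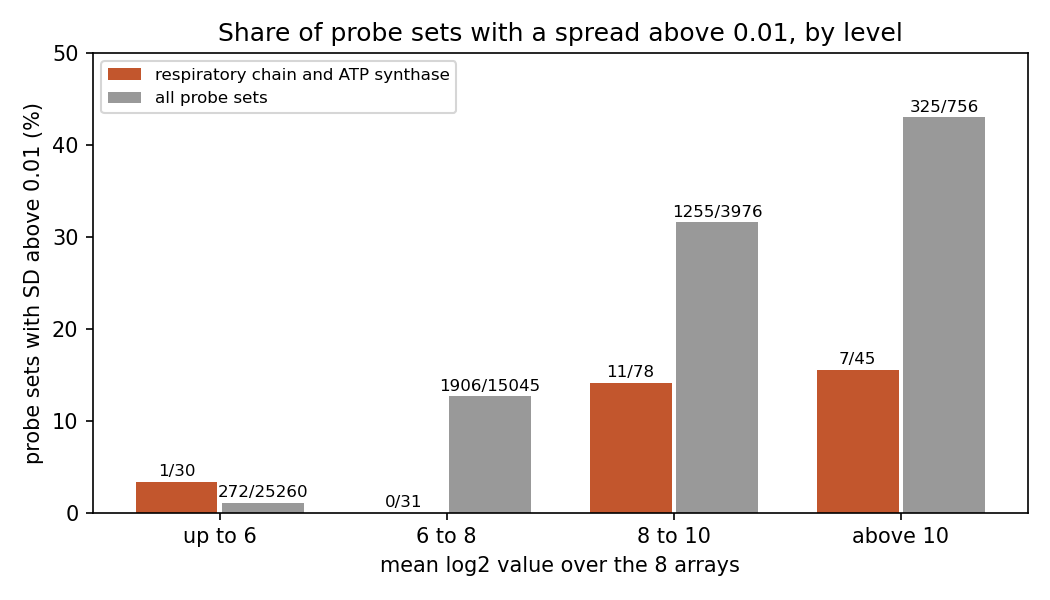
Percent of probe sets with an SD over the 8 arrays above 0.01 (y axis), by mean log2 value (x axis), for the members (orange) and for all probe sets (grey), with counts above the bars. Above a mean of 10, 15.6% of the members had such a spread, against 43.0% of all probe sets.

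By role, the measured members included 3 of 16 probe sets for core subunits of complex I, the conserved ones that hold the electron path. They also included 4 of 62 for the other genes grouped with complex I by an Nduf symbol, assembly factors apart. None of the 16 probe sets for assembly factors of complexes I and II (12 genes, such as Ndufaf1 and Sdhaf2) was measured. The 9 probe sets for the subunits of succinate dehydrogenase, Sdha to Sdhd, had mean levels of 5.28 to 10.1 and an SD of at most 0.00029, so complex II gave no comparison. Among the unmeasured were also probe sets for subunits at the catalytic centre of the ATP synthase, Atp5a1 and Atp5b.

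The rank product, a test on the ranks of differences between arrays, called 4 of the 184 members at an estimated proportion of false positives of 0.05. They were 1 higher (Atp5g2) and 3 lower (Ndufb6, Cox5a and Atp5pb) in the RA group. Of all probe sets the test called 1.47%, 0.888% higher and 0.577% lower. Of the measured ones it called 17.6%, 10.6% higher and 6.92% lower, so 4 of 19 members (21.1%) was near that background. limma with Benjamini-Hochberg adjustment called none of the members and none of all probe sets. The lowest adjusted p among members was 0.298. At an unadjusted p under 0.05 limma counted 32 of the 184 members, where it counted 10.1% of all probe sets. Of these 32, 28 were unmeasured members, whose values were nearly constant, so this count is not read as a change of the chain. Among the 19 measured members it counted 4 (21.1%), where it counted 9.66% of all measured probe sets. Both member shares were above those backgrounds, and the differences were not tested. The rank product was also run on the 3758 measured probe sets alone, and then called no member and 21 probe sets in all.

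Counted by probe set, the measured members leaned about as far to the RA side as the array. Of the 19, 14 had a higher and 5 a lower mean in the RA group (73.7% higher, against 73.1% of all measured probe sets), and their median log2 fold change was 0.029, against 0.069. On the probe set with the highest mean of each gene, 12 of 14 measured members were higher in mean (85.7%, median 0.046), against 75.9% of all measured probe sets taken so (median 0.076). This count leaves out the called probe sets of Ndufb6 and Cox5a, and also Cox6b1, Cox6c and the uncalled probe set of Atp5pb, which are not the highest of their gene. By complex, 6 of 7 were higher in mean in complex I, 1 of 2 in complex III, 4 of 6 in complex IV and 3 of 4 in complex V. Their changes ran between −0.25 and 0.14, while those of all measured probe sets ran between −1.17 and 1.91. Without RA 3, RA 4 and control 3, the arrays highest in choroid plexus markers, 47.4% were higher and the median was −0.015. The part of such tissue in the members' values was not tested.

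**Figure D2:**
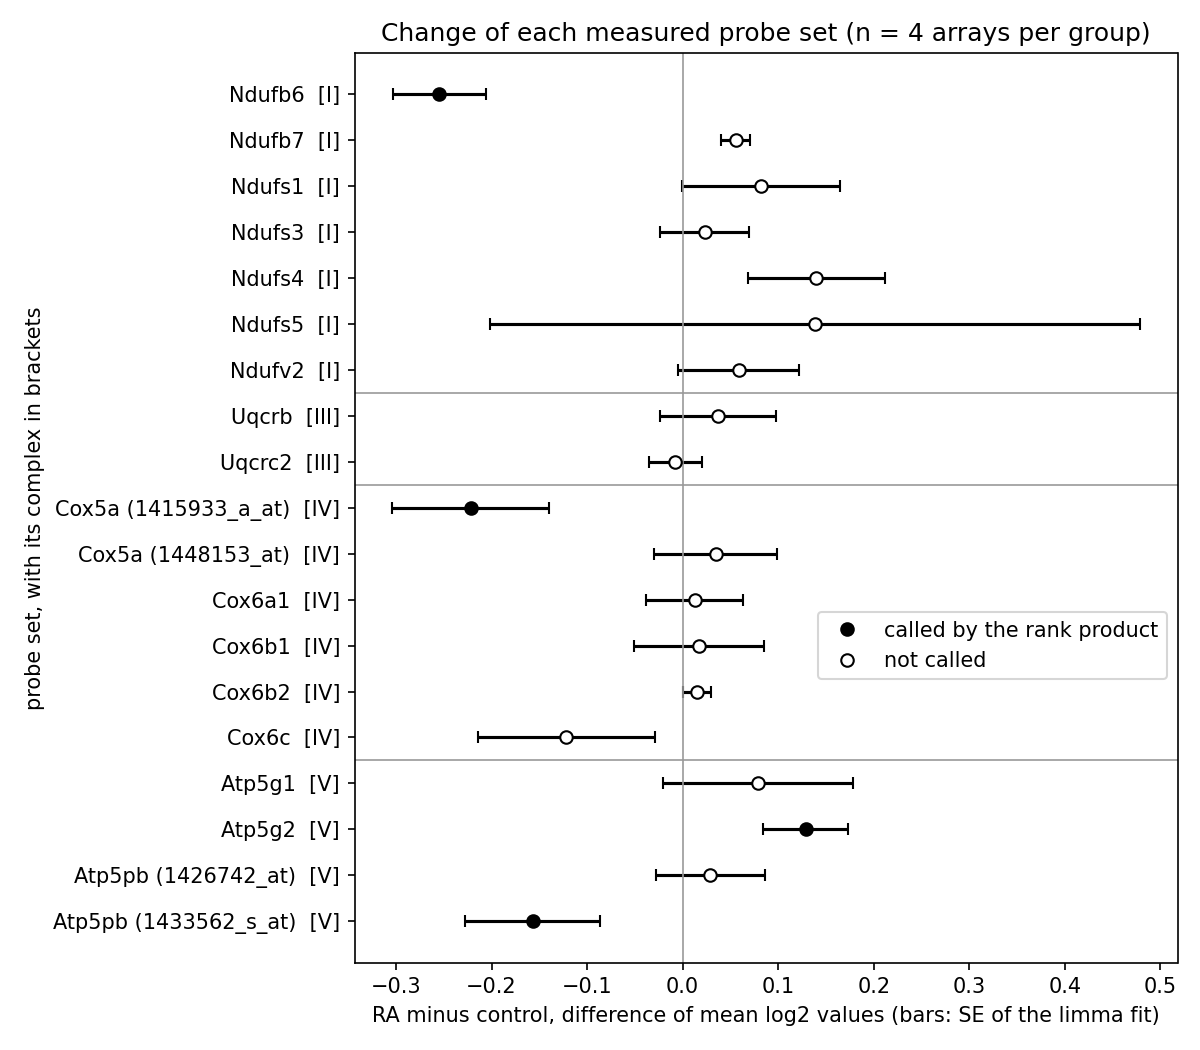
Difference of mean log2 values, RA minus control (x axis), for the 19 measured probe sets ordered by complex (y axis), with the standard error of the limma fit as bars and filled points where the rank product made a call. Ndufb6 was the lowest at −0.25, and Ndufs5 had the widest error, 0.34.

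In complex I, the measured member with the largest change was Ndufb6, an accessory subunit of the membrane arm. Its probe set 1434056_a_at read 8.95, 8.83, 8.76 and 8.87 in the RA group, against 9.04, 9.16, 9.15 and 9.07 in the control group. Every RA array lay below every control array. Ndufb6 fell by 0.25 on the log2 scale (standard error 0.048), to 0.838 times the control level, with an estimated proportion of false positives of 0.0047 and a limma adjusted p of 0.301. The call held without any single array, with changes between −0.29 and −0.22. It was lost without RA 3, RA 4 and control 3 together (change −0.20, proportion of false positives 0.0797). A second Ndufb6 probe set was unmeasured, at a mean of 9.68.

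Ndufb7, another accessory subunit of the membrane arm, was the other measured complex I member whose groups did not overlap. It read 9.42, 9.45, 9.42 and 9.44 in the RA group, against 9.41, 9.35, 9.37 and 9.39 in the control group. All RA arrays were above all control arrays, but by little. The log2 fold change was 0.055 (standard error 0.015), which the rank product did not call (proportion of false positives 0.0723, limma adjusted p = 0.358). Groups that do not overlap were found for 3 of the 19 measured members, 2 higher and 1 lower, and for 5.59% of all measured probe sets, 2.71% higher and 2.87% lower.

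Ndufs4, an accessory subunit whose loss in mice gives a fatal brain disease of the Leigh type, was 8.61, 8.52, 8.77 and 8.76 in the RA group, against 8.45, 8.61, 8.45 and 8.58 in the control group. RA 3 and RA 4 were above every control array, while RA 1 and RA 2 lay among the controls. Its log2 fold change of 0.14 (standard error 0.072) was the largest positive one of the members and was not called (limma adjusted p = 0.557).

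The 3 measured core subunits carry electrons or hold the arm that does. Ndufs1, which binds iron-sulfur clusters, showed an RA minus control difference of 0.082 ± 0.083 on the log2 scale (standard error). Ndufv2, which holds an iron-sulfur cluster beside the NADH site, had 0.059 ± 0.063. Ndufs3 had 0.023 ± 0.047. The changes were about as large as their errors or smaller, none was called, and the groups overlapped in each.

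The measured probe set named Ndufs5, for an accessory subunit, had the widest spread of all members, with an SD of 0.47 over the 8 arrays. The platform annotation names the protein-coding gene for it, on chromosome 4, but gives as its record a transcript that RefSeq places at the transcribed pseudogene Ndufs5-ps, on chromosome 16. Which of the 2 transcripts its values follow was not tested. It read 9.33, 8.93, 8.47 and 9.41 in the RA group, against 9.41, 9.36, 8.43 and 8.38 in the control group. Each group held arrays near 9.4 and arrays near 8.4, so the spread did not follow the diet. The log2 fold change was 0.14 ± 0.34 (standard error, limma adjusted p = 0.912). The rank product did not call it (0.0788), but called it higher without control 1 (change 0.31) or without control 2 (0.29), and the sign turned in 2 of the 8 cases of 1 array left out (lowest −0.032).

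The probe sets most like Ndufs5 over the 8 arrays, chosen after its values were seen, were ranked by the size of Pearson's r among measured probe sets, as a description over arrays that fall into clusters. The nearest were both probe sets of Cap1, a regulator of actin filaments, which ran the opposite way. Cap1 (1417461_at) read 7.90, 8.75, 9.57 and 7.95 in the RA group, against 7.58, 7.79, 9.47 and 9.37 in the control group. It was high where Ndufs5 was low on the same arrays, RA 3, control 3 and control 4, and RA 2 lay between the others in both genes. Of the 8 probe sets with the largest size of r, only Med8 ran the same way as Ndufs5 (r = 0.93), and all others ran opposite. Of these 8, 5 belong to genes on chromosome 4, where the protein-coding Ndufs5 lies, with Cap1 counted for both its probe sets. Of 3404 measured probe sets with a placed gene 5.82% lie there, and the difference was not tested. The genes are Cap1, with 14 protein-coding genes between it and Ndufs5 in the GRCm38.p6 order, and Ppt1, a lysosomal thioesterase, with 15. Med8, a Mediator subunit, has 80 between and Tmem68 has 767. The other 3 were Ccm2, Kif5a and Urgcp, on chromosomes 10 and 11.

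**Figure D3:**
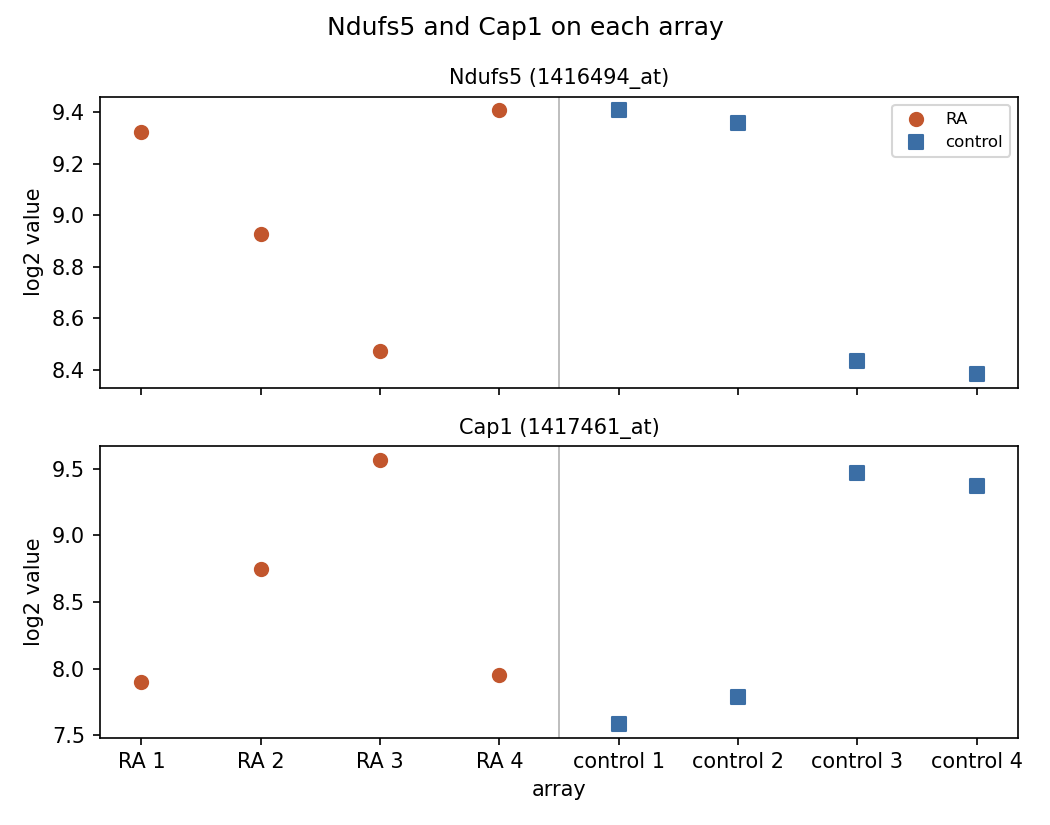
Deposited log2 values (y axes) of Ndufs5 and of Cap1 on each of the 8 arrays (x axis), RA arrays as orange points and control arrays as blue squares. RA 3, control 3 and control 4 were the arrays with the 3 lowest Ndufs5 values (8.38 to 8.47) and the 3 highest Cap1 values (9.37 to 9.57).

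In complex III, Uqcrc2, a core protein, and Uqcrb, the ubiquinol-binding protein, were measured. Uqcrc2 had means of 9.91 ± 0.042 in the RA group and 9.92 ± 0.041 in the control group (SD, n = 4 each). Uqcrb read 11.54, 11.51, 11.74 and 11.51 in the RA group, against 11.48, 11.58, 11.61 and 11.49 in the control group. In Uqcrb only RA 3 lay above the controls, and its log2 fold change was 0.037 ± 0.061 (standard error). Neither was called. Probe sets for Uqcrc1, for the Rieske iron-sulfur protein Uqcrfs1 and for the small subunits Uqcrh, Uqcrq, Uqcr10 and Uqcr11 were unmeasured.

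In complex IV, Cox5a, a nuclear subunit found in every tissue, had 2 measured probe sets. Probe set 1415933_a_at read 10.53, 10.23, 10.38 and 10.59 in the RA group, against 10.64, 10.69, 10.58 and 10.71 in the control group. RA 2 and RA 3 were well below the controls, RA 1 was below them by less, and RA 4 overlapped with control 3. It fell by 0.22 on the log2 scale (standard error 0.082), to 0.857 times the control level, with a proportion of false positives of 0.0105 and a limma adjusted p of 0.459. The call was lost without control 1, control 2 or control 4 and without RA 2 and control 1 together, with changes between −0.27 and −0.15 over the fits without 1 array.

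The other measured Cox5a probe set, 1448153_at, did not share the fall. It read 10.60, 10.45, 10.72 and 10.71 in the RA group, against 10.57, 10.66, 10.55 and 10.56 in the control group. Here RA 3 and RA 4 were the highest arrays and RA 2 the lowest, and the log2 fold change was 0.034 ± 0.065 (standard error), not called. The remaining Cox5a probe set was unmeasured, at a mean of 8.73. The probe set that fell is therefore 1 of 3 for this gene.

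The remaining measured members of complex IV were not called. Cox6c, a small structural subunit, read 9.74, 9.55, 9.81 and 9.54 in the RA group, against 9.61, 9.91, 9.85 and 9.75 in the control group. RA 2 and RA 4 were below every control array, and the change was −0.12 ± 0.093 (standard error, proportion of false positives 0.104), called only without RA 3 (−0.17). Cox6a1 and Cox6b1 had changes of 0.013 ± 0.050 and 0.017 ± 0.069. Cox6c, Cox6a1 and Cox6b1 each had a further probe set that was unmeasured, at means of 11.48, 10.91 and 10.69.

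Several complex IV subunits have isoforms that are known from other tissues, such as heart, muscle, lung or testis. The isoform of most tissues was measured for Cox6a1 and Cox6b1, while Cox4i1, Cox7a2 and Cox8a were unmeasured in every probe set. Of the isoforms of other tissues, Cox6b2, of testis, was measured, with means of 5.86 ± 0.020 in the RA group and 5.84 ± 0.023 in the control group (SD, n = 4 each), and its change of 0.015 ± 0.015 (standard error) was not called. Probe sets for Cox4i2, Cox6a2, Cox7a1, Cox7b2 and Cox8c were unmeasured, at mean levels of 5.54 to 6.79. Levels of different probe sets cannot be set against each other on an array, so no isoform ratio is given.

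In complex V, the genes Atp5g1, Atp5g2 and Atp5g3 encode the same mature c subunit, which forms the rotating ring of the membrane part. Atp5g2 (1415980_at) read 9.34, 9.47, 9.50 and 9.35 in the RA group, against 9.33, 9.25, 9.33 and 9.25 in the control group. All RA arrays were above all control arrays, RA 1 by the smallest margin. Atp5g2 was called higher, with a log2 fold change of 0.13 (standard error 0.045), 1.09 times the control level, a proportion of false positives of 0.0486 and a limma adjusted p of 0.434. The call lay at the threshold. Leaving out 1 array at a time, it held in 2 of 8 cases, control 1 or control 3, with changes between 0.10 and 0.15.

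Atp5g1 read 9.06, 8.93, 9.29 and 9.12 in the RA group, against 8.87, 9.08, 9.19 and 8.95 in the control group. The groups overlapped, and the change of 0.079 ± 0.10 (standard error) was not called. The only Atp5g3 probe set was unmeasured, at a mean of 11.50. Of the c subunit genes, then, 1 was called, 1 was measured without a call, and 1 could not be compared.

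Atp5pb encodes subunit b of the peripheral stalk, which holds the catalytic head still against the turning ring. Probe set 1433562_s_at read 10.22, 10.13, 10.03 and 10.27 in the RA group, against 10.17, 10.41, 10.37 and 10.32 in the control group. Every RA array lay below control 2, control 3 and control 4, and control 1 fell among the RA arrays. It fell by 0.16 on the log2 scale (standard error 0.070), to 0.897 times the control level, with a proportion of false positives of 0.0430 and a limma adjusted p of 0.516. The call held in 3 of the 8 fits without 1 array. The other measured Atp5pb probe set, 1426742_at, read 10.16, 10.01, 10.19 and 10.25 in the RA group, against 10.04, 10.18, 10.15 and 10.12 in the control group. In it RA 4 and RA 3 were the highest arrays and RA 2 the lowest, and its change of 0.029 ± 0.057 (standard error) was not called.

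**Figure D4:**
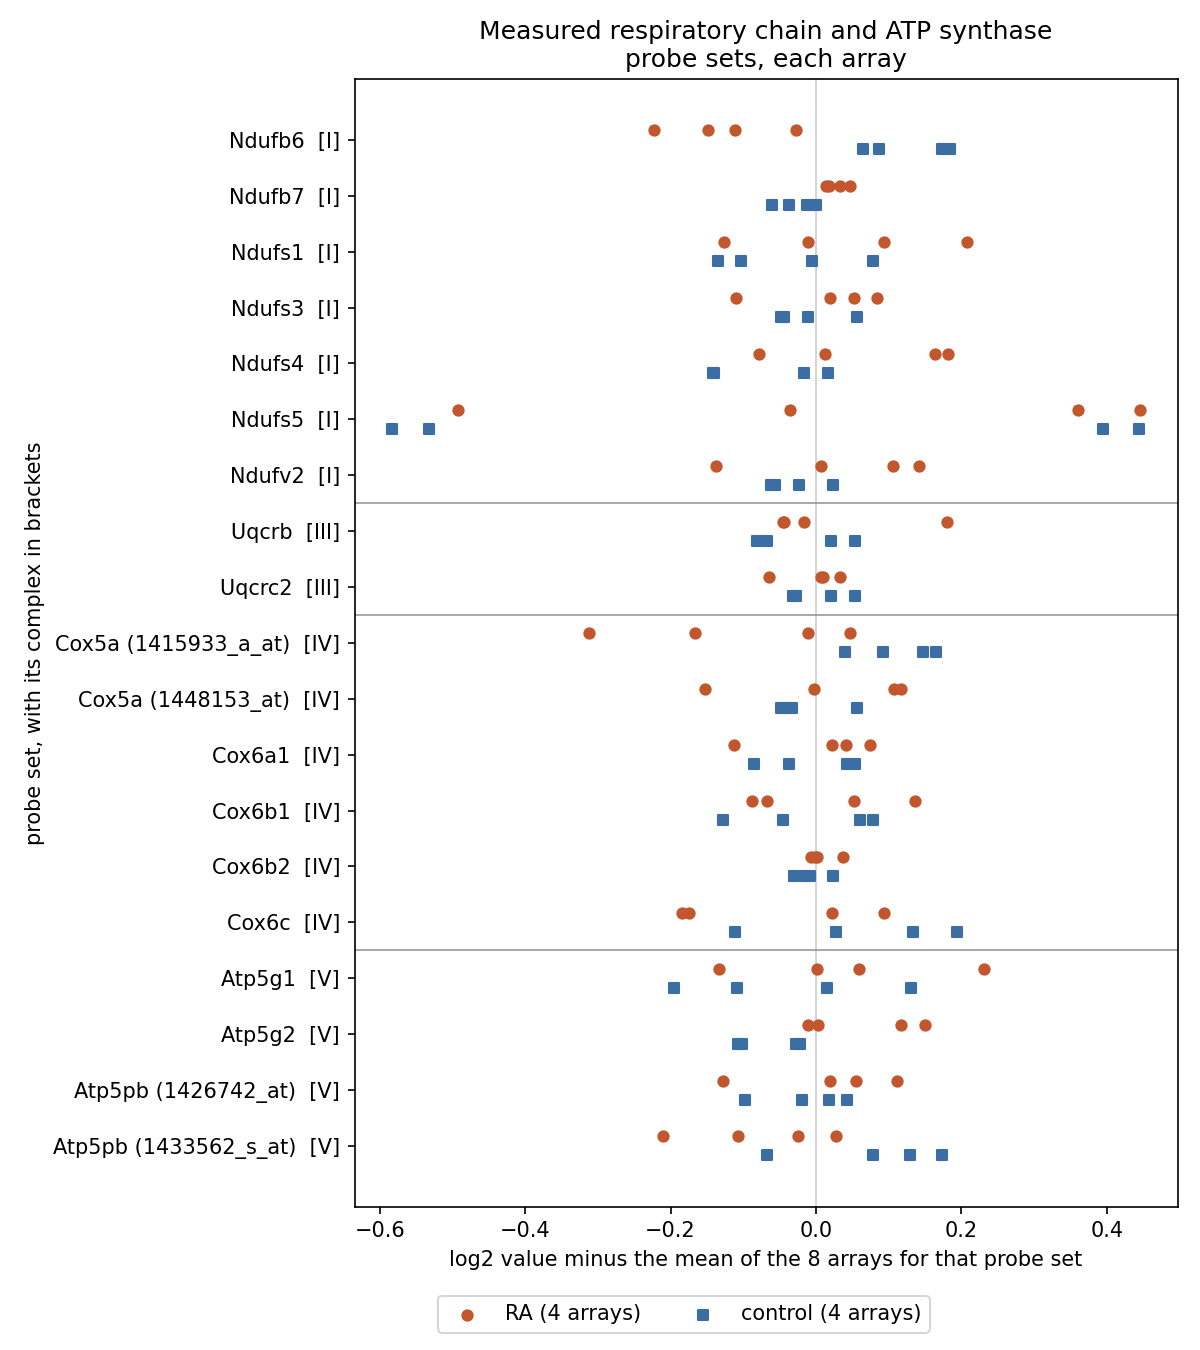
Log2 value of each array minus the mean of the 8 arrays (x axis) for the 19 measured probe sets (y axis, complex in brackets), RA arrays as orange points above control arrays as blue squares. The groups are apart in Ndufb6, Ndufb7 and Atp5g2, and Ndufs5 spreads over both sides in both groups.

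Cox5a and Atp5pb were the only members with 2 measured probe sets, and in both the probe sets parted between the diets. For Cox5a, the value of 1415933_a_at minus that of 1448153_at was −0.064, −0.22, −0.34 and −0.12 in the RA group, against 0.069, 0.035, 0.032 and 0.15 in the control group. It was below 0 on every RA array and above 0 on every control array. For Atp5pb, the value of 1426742_at minus that of 1433562_s_at was −0.060, −0.13, 0.16 and −0.020 in the RA group, against −0.14, −0.24, −0.22 and −0.20 in the control group. This difference too did not overlap between groups, and RA 3 was the only array above 0.

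Over all genes with 2 or more measured probe sets (655 genes, 1328 pairs), such a difference was apart between the groups in 8.66% of pairs, and in 4.52% of pairs it was apart with changes of opposite sign, as in these 2 genes. Neither gene therefore gives 1 direction on the diet. The 3 probe sets called lower, and all 5 measured members with a lower mean, have the suffix _a or _s, which the manufacturer gives to probe sets shared by several transcripts of a gene or of a family. Of the 10 measured members with such a suffix 5 were lower in mean, and of the 9 without it none was. Among all measured probe sets 28.6% of those with _a or _s and 24.8% of those without a suffix were lower in mean. Many subunits of the chain have pseudogenes, and which copies the probes bind was not tested, as probe sequences were not used here.

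**Figure D5:**
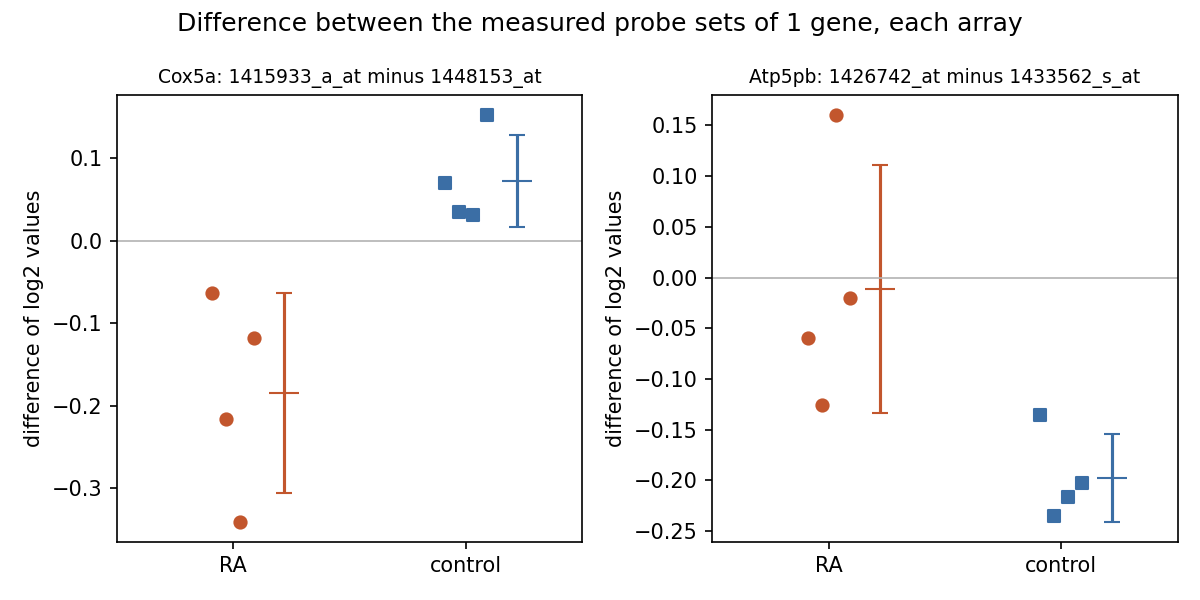
Difference of log2 values between the measured probe sets of Cox5a and of Atp5pb (y axes) on each array, RA as orange points and control as blue squares, with the mean and SD beside them (n = 4 each). The panels show 1415933_a_at minus 1448153_at and 1426742_at minus 1433562_s_at. Neither difference overlapped between groups.

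Part of the members shared an order of arrays, and the same counts over all measured probe sets were not made. RA 2 was the lowest RA array in 11 of the 19 measured members and RA 3 the highest in 10. In the control group, control 2 was the highest in 11 and control 1 the lowest in 9. In Ndufs1, Ndufs3, Ndufs4, Ndufv2, Uqcrc2 and the uncalled probe sets of Cox5a and Atp5pb, RA 2 was the lowest and RA 3 or RA 4 the highest RA array, with control 2 the highest control array. Other members went against this order. Cox6a1 and Ndufb7 had RA 2 as the highest RA array. RA 3 was the lowest RA array in 4 members, Cox6a1, Ndufs5, and the called probe sets of Ndufb6 and Atp5pb. RA 2 and control 1 also had the lowest levels of oligodendrocyte markers in their groups, 8.53 and 8.73. There the other RA arrays had 9.54 to 9.90 and the other control arrays 9.12 to 9.98. Both were also lowest in their groups in the mean of markers of neurons, hippocampal neurons, astrocytes and choroid plexus, but not in every marker. The astrocyte mean was low through Gfap (7.45 and 7.51). In Aldh1l1, Aqp4 and Gja1, the other markers of that mean, RA 2 was the highest RA array. Control 1 was the highest control array in Aqp4 and Gja1. Of the neuron markers, Thy1 was highest of its group in both. For choroid plexus control 1 was only just below control 2 and control 4 (5.65 against 5.68 and 5.69). In the mean of markers of meninges, endothelium, microglia and striatum both were the highest of their groups (meninges 7.73 and 7.04, striatum 7.81 and 8.27). Among the meninges markers, control 1 was the highest control array in Dcn (10.19), Col1a2 and Slc6a13. It was the lowest in Lum (6.12) and Ogn (6.62). For thalamus markers RA 2 was the highest RA array. Whether the makeup of the tissue gave the order of arrays in the members was not tested. In bulk RNA, fewer cells of a type and less RNA per cell cannot be told apart.

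Promoters of chain genes are known to bind nuclear respiratory factor 1 (NRF1), factors of the ETS family such as GABP, and YY1. RefSeq promoters (GRCm38.p6, 250 bases before to 50 after the start) matched 77 of the 93 genes by symbol. The NRF1 letters GCGCATG, the core of its palindrome, were found on either strand in 14 of the 77 (18.2%), against 4.04% of all 27025 promoters. The ETS letters CCGGAAG were in 21 (27.3%), against 9.12%, and the YY1 letters AAGATGG in 10 (13%), against 6.48%. A match is a description of the letters and not a site in use. The 100 bases before the start are given for the 3 measured members whose groups did not overlap. They run 5′ to 3′ on the gene's strand, with matches to any of these motifs in capitals.
Ndufb6 (chr4:40279422-40279521, minus strand): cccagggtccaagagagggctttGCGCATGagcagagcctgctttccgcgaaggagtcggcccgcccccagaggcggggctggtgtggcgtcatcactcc
Ndufb7 (chr8:83566658-83566757, plus strand): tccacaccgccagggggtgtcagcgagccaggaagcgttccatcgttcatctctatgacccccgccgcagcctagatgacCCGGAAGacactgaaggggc
Atp5g2 (chr15:102671048-102671147, minus strand): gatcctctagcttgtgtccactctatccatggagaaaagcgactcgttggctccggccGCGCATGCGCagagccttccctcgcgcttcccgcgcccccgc
Atp5g2, higher in the RA group, held overlapping NRF1 matches on both strands, from position −42 to −33 from its start. Ndufb6, lower in the RA group, held an NRF1 match from −77 to −71 and, outside the printed stretch, an ETS match from −232 to −226. Ndufb7 held an ETS match from −20 to −14. The NRF1 letters thus stood before 1 gene called higher and 1 called lower. The other genes called lower, Cox5a and Atp5pb, held no NRF1 match. Atp5pb held a YY1 match from −2 to 4, and Cox5a held no match to any of these motifs. Cox6a1, which was not called, held overlapping NRF1 matches on both strands, from −162 to −153.

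Lists of genes around the chain were mostly uncalled. Counting any probe set of a gene, 1 list held calls, the carriers that exchange ATP, phosphate and protons, with 2 genes lower and none higher, of 15 on the array and 4 measured. The calls were 2 of 9 measured probe sets, where 6.92% of all measured probe sets were called lower, and on the probe set with the highest mean of each gene none of the 2 measured genes was called. Slc25a4, the main exchanger of ADP and ATP in muscle, heart and brain, read 11.21, 11.14, 11.16 and 11.27 in the RA group, against 11.33, 11.46, 11.35 and 11.28 in the control group. All RA arrays were below all control arrays, and it fell by 0.16 on the log2 scale (standard error 0.045, proportion of false positives 0.0141, limma adjusted p = 0.375). Slc25a5, the exchanger of dividing cells and most tissues, was called lower in 1 of 6 measured probe sets (1438360_x_at, change −0.53 ± 0.23, standard error), and its other 5 had changes of 0.0017 to 0.12, none called. Both called probe sets have a suffix, _a for Slc25a4 and _x for Slc25a5, and neither is the one with the highest mean of its gene.

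In the other lists no gene was called. Of 17 genes of the TCA cycle and pyruvate dehydrogenase 4 were measured, with a median log2 fold change of 0.0068, and Dlat, the acetyltransferase of pyruvate dehydrogenase, had the largest change (−0.089 ± 0.12). Suclg2, a subunit of succinyl-CoA ligase, had 0.087 ± 0.022 without overlap between groups and was not called. Of 18 genes for cytochrome c, coenzyme Q and other electron entry 2 were measured. Cycs, cytochrome c itself, had −0.14 ± 0.11, and Cyc1, the cytochrome of complex III, read 9.539, 9.544, 9.560 and 9.547 in the RA group, against 9.519, 9.515, 9.505 and 9.531 in the control group. Cyc1 did not overlap between groups, at a change of 0.030 ± 0.0067 (limma adjusted p = 0.326).

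Of 32 other assembly factors 2 were measured, with Acad9, an assembly factor of complex I, at 0.15 ± 0.092. Of 22 genes of mitochondrial biogenesis and dynamics 2 were measured in any probe set, with Dnm1l, which drives fission, at 0.11 ± 0.087 and Ppargc1a, a coactivator of mitochondrial genes, at 0.068 ± 0.069. Of 17 genes of glycolysis and lactate 8 were measured in their highest probe set, 7 of them higher in mean, with a median of 0.052 and Tpi1, an isomerase of glycolysis, at −0.16 ± 0.14. The errors here are standard errors of the limma fit, and both medians given stood below the 0.069 of all measured probe sets. The 1 probe set for a mitochondrially encoded subunit, ND5 of complex I, was unmeasured, so the mitochondrial genome's own part of the chain was not compared.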

How the data were processed

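Hippocampal RNA of 4 RA and 4 control samples was hybridised to Affymetrix mouse genome arrays. The authors ran FARMS on the scanner files in R, and the log2 values they deposited were taken with no added scaling. How arrays were scaled before FARMS is not stated in the sources used. Groups and array numbers follow the labels. The 64 control probe sets were left out. Gene names are from the platform annotation, in which 34945 probe sets name 1 gene, 932 several and 9160 none, and 10 probe sets that name a member with another gene were not taken as members, none of them measured. Members and lists were chosen with earlier results of these data known.

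Groups were compared with the rank product, as in the study's methods, unpaired, over 45037 probe sets with 100 permutations within arrays. A call needed an estimated proportion of false positives under 0.05, taken separately for higher and lower values (Python 3.11.15, NumPy 2.4.6, pandas 2.3.3). On probe sets of unequal spread this proportion is not an error rate. limma 3.58.1 (R 4.3.3) gave changes, standard errors and adjusted p-values over the same probe sets. Both were tested on simulated data.

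Named genes were the called members, up to 4 higher and 4 lower measured members of each complex by size of change, and the tissue isoforms. Measured members whose groups did not overlap were named too. For each list up to 2 called genes per direction were named, otherwise the measured gene with the largest change. Added to these once values were known were the genes most like Ndufs5, the unmeasured genes named as such, Suclg2, Cyc1 and Ppargc1a. Lists were counted on the probe set with the highest mean of each gene, or on any probe set where so stated. Alternatives were other scalings, filters, thresholds and tests, a replicate block, and leaving out arrays. Whether array numbers pair samples was checked by the correlation of same-numbered deviations from the group means, which was −0.12, −0.33, 0.45 and −0.39, so they were not taken as pairs.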

Additional observations from a re-analysis of the deposited data

Results flagged for a closer look

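In each measured member, the highest and lowest array of a group of 4 was set against the others. Of 38 groups examined, 2 had an array far from the rest, and chance gives about 1 in 20. In Uqcrb (1455997_a_at) the RA group held 1 such array, RA 3 at 11.74, where the other RA arrays were 11.51 to 11.54, a gap of 0.870 of the group's range. In Cox5a (1448153_at) the control group held 1, control 2 at 10.66, where the others were 10.55 to 10.57, a gap of 0.858 of the range. Neither probe set was called, and the cause was not tested.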

How the results depend on the processing

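The deposited values limit what can be compared, since 165 of 184 members were nearly constant, and 4 arrays a group limit the precision of the rest. The rank product called 4 members and 660 probe sets in all. These counts were 2 and 240 over probe sets with means above the median, 0 and 21 over measured probe sets alone, 1 and 183 at a threshold of 0.01, and 0 and 0 with limma in place of the rank product. With 1 probe set per gene 2 members were called. Leaving out 1 array gave 1 (without control 4) to 4 members (without control 1) and 271 (without RA 2) to 1239 (without control 1) probe sets. Of all calls 60.6% were higher, but 4.23% without RA 4 and 77.5% without control 1. After the data were seen, RA 2 and control 1 were left out together, which gave 2 members and 270 probe sets, and RA 3, RA 4 and control 3 together, which gave 1 and 151. Array numbers did not pair the samples, and a replicate block gave 2 members and 293 probe sets. Quantile normalization gave 3 members, without Atp5g2, and subtraction of array medians 4. The percent of measured members with a higher mean was 57.9 to 78.9 without 1 array 68.4 after quantile normalization and 85.7 with 1 probe set per gene, and moved to 47.4 without RA 3, RA 4 and control 3. Their median change was 0.0093 to 0.059 without 1 array, 0.046 with 1 probe set per gene, −0.015 without those 3 arrays and −0.021 for the 8 members with an SD above 0.1. limma called 0 members, and 0 in all fits without 1 array, with a replicate block, array weights or trend and robust moderation. It called 49 after quantile normalization and 167 after subtraction of array medians, which shift nearly constant values between groups, and 3 and 4 of these were measured members. The methods' t-test counted 29 members at an unadjusted p under 0.05 and 0 after Benjamini-Hochberg adjustment. In all other cases the cause was not tested.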

Other observations

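Of the 10 probe sets that name a member together with another gene, 1 is a second Ndufs5 probe set, shared with a pseudogene (1416495_s_at). It was nearly constant, with means of 9.5972 in the RA group and 9.5973 in the control group, while the measured probe set named Ndufs5 spread over an SD of 0.47 on the same arrays. What sets these probe sets apart was not tested.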
